A study of Mus musculus with 17 samples.

Results

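The genes described here are 45 genes of mitosis: kinases and cyclins of mitotic entry, spindle checkpoint proteins, centromere and kinetochore proteins, the chromosomal passenger complex, kinesin motors, spindle and cytokinesis proteins, and factors of anaphase. They were chosen by gene symbol, and each was represented by its probe set with the highest mean signal. Of the 45, 44 were measured among 19938 genes in all. Cyclin B1 (Ccnb1) had no probe set carrying its symbol alone and was not analysed here. A dividing cell makes most of these mRNAs in a wave that runs through G2 into mitosis, and destroys many of the proteins as it leaves mitosis. Their RNA level in a culture can thus depend on how many cells are cycling as well as on the RNA made per cell. Their transcription is known to depend on a promoter element called the cell cycle homology region, bound by the MuvB complexes, and often on CCAAT boxes bound by NF-Y.

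RNA came from 3134 cells, a mouse mammary epithelial cell line, in 4 stable derivatives that all carry a tetracycline-repressed transactivator. One derivative added Flag-tagged dominant-negative Brg1 (dnBrg1; Brg1 is the ATPase of SWI/SNF complexes), another dominant-negative Chd4 (dnChd4; an ATPase of NuRD) and another dominant-negative Snf2h (dnSnf2h; the ATPase of ISWI complexes), and the control derivative, 3134Tet, carried the transactivator alone. All cells were kept in 5 µg/ml tetracycline and then grown for 48 h in medium with charcoal-dextran-treated serum, either without tetracycline (induced) or with it (repressed). Each dominant-negative line had 2 induced and 2 repressed arrays, and there were 3 induced and 2 repressed arrays for the control line. Induced and repressed cells therefore differ in the drug and in the transactivator as well as in the dominant-negative protein, and all lines keep their own copies of the remodelers. The sources used here do not say whether each line is 1 clone, or whether replicates were separate cultures. The p-values thus reflect only how these arrays vary, and that variation may be technical. In whole cultures, fewer cells in G2 and mitosis cannot be told apart from less of each RNA per cell.

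Several measurements set limits on what the groups can show. The libraries labelled control did not sort by their labels. Across all genes the library labelled control induced replicate 1 correlated best with control repressed replicate 2 (Pearson r = 0.9945), and control repressed replicate 1 with control induced replicate 2 (r = 0.9953). Inductions of the dominant-negative lines were therefore fitted on their own 12 arrays, and every comparison that uses control arrays was fitted on all 17. Chd4 checked the labels of 1 line: it read 12.27 and 12.27 in dnChd4 induced arrays, against 10.56 and 10.35 in dnChd4 repressed arrays. Smarca4 (the Brg1 gene) changed by 0.12 in its line (limma adjusted p = 0.615) and Smarca5 (the Snf2h gene) by -0.24 (adjusted p = 0.209), and the probe sets need not see those transgenes. Of 5 epithelial markers, Epcam read between 3.94 and 4.32 on all arrays, under the mean level of 4.77 that bounds the dimmest 30% of genes. Krt19 read 4.26 to 4.88, while Cdh1 (5.04 to 5.48), Krt18 (5.46 to 5.91) and Krt8 (5.81 to 6.62) lay above that level. Of 4 fibroblast markers, the mesenchymal filament gene Vim read 12.29 to 13.16, Pdgfra 6.90 to 8.85, Col1a1 6.51 to 7.77 and Dcn 3.81 to 4.06. All values are log2 signals, and a change is a difference of group means on that scale.

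Promoters are shown first, because a shared promoter element is known for genes of this kind. RefSeq promoter windows of 300 bases (250 before to 50 after a transcript start, build GRCm38.p6) were found for 38 of the 45 genes, 43 windows in all. Windows of 1 gene can overlap. Matches to the core of the cell cycle homology region (spelled TTTGAA or TTCGAA) were searched on both strands, as were matches to the CCAAT box (spelled CCAAT). Core and CCAAT matches did not overlap in the windows shown. A core match stood in 31 of the 43 windows (72.1%), against 19.2% of all 32851 windows in the table and 16.5% of the windows of the genes tested. A CCAAT box stood in 33 (76.7%), against 37.4% of all windows, and both elements stood in 28 (65.1%), against 7.52%. The 4 windows below belong to Bub3 at chr7:131560120-131560419 (plus strand), Ect2 at chr3:27153805-27154104 (minus strand), Top2a at chr11:99024140-99024439 (minus strand) and Anln at chr9:22389157-22389456 (minus strand). They were picked by signal: their genes had the highest mean levels among the genes named here that have a core match. Bub3 was called in only 1 dominant-negative line, and the other 3 genes in all of them. Capitals mark each core or CCAAT match, also on the other strand, and each window runs 5′ to 3′ on the strand of the gene.
Bub3 promoter: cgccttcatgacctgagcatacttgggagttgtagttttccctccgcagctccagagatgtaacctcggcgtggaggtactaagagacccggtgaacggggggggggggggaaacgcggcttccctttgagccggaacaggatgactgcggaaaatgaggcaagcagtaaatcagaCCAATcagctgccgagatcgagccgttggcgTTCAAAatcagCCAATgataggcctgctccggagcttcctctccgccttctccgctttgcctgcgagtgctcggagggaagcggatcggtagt
Ect2 promoter: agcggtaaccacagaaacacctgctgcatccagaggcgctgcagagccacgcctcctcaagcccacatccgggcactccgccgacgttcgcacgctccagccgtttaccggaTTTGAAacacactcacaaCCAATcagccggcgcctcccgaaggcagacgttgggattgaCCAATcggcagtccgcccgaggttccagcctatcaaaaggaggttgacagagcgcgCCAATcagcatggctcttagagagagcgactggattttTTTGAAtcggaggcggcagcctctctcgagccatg
Top2a promoter: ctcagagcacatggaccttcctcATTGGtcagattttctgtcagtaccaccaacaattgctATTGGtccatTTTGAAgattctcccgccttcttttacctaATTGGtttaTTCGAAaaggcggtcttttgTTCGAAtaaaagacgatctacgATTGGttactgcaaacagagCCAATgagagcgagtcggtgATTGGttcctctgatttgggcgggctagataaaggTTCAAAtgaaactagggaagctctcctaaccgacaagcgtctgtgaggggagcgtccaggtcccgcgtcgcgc
Anln promoter: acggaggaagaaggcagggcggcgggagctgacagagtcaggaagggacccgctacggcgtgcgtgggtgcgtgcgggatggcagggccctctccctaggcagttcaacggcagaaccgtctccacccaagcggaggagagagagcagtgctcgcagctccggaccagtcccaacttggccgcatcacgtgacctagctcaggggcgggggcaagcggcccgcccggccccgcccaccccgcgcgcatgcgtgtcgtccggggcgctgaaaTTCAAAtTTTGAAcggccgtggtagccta
The Top2a window held 4 core and 6 CCAAT matches, the Ect2 window 2 and 3, the Bub3 window 1 and 2, and the Anln window 2 and 0. A match describes letters and does not show that a factor binds there.

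**Figure D1:**
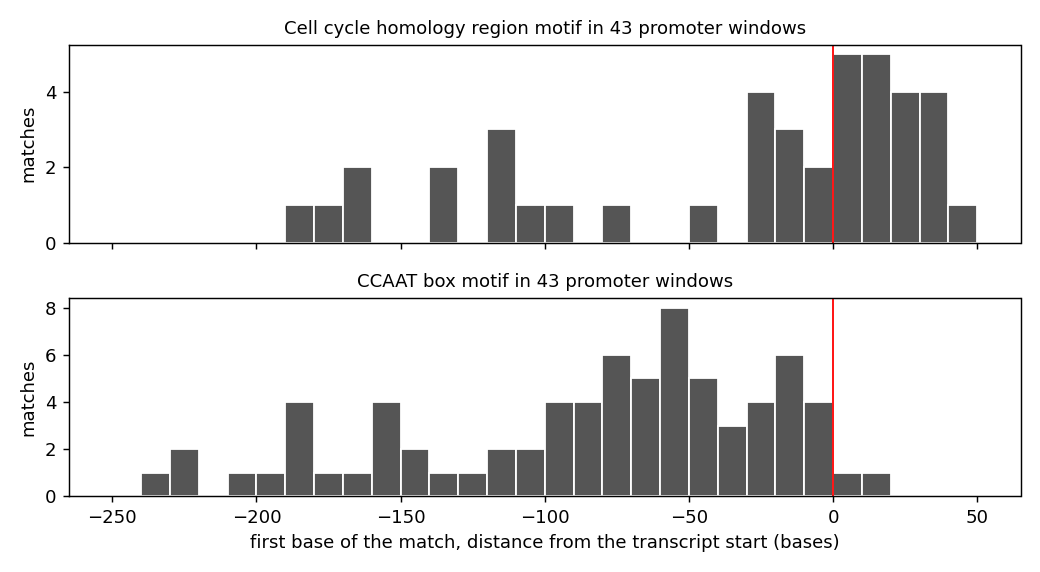
Number of matches in bins of 10 bases, by the distance of the first base of the match from the transcript start (red line), over 43 promoter windows of the mitotic genes. Core matches (upper panel, 41 in all) had a median distance of -9 bases, and CCAAT matches (lower panel, 74 in all) a median of -69.5 bases.

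Core matches lay mostly near the transcript start. Of 41 core matches, 29 began within 50 bases before the start or after it, and 12 began further upstream. Of 74 CCAAT matches 24 began in that near part and 50 further upstream. The upstream part is the larger part of each 300-base window, so the CCAAT count by itself does not show an upstream position. Positions were not counted in windows of other genes, so neither count sets the mitotic genes apart. A site in overlapping windows of the same gene, as for Ect2, Prc1 and Bub3, was counted in each window. Among other mitotic genes, a core match stood in 19 of 26 windows of other spindle and cytokinesis genes (73.1%), 6 of 8 condensin windows (75%) and 12 of 28 windows of other centromere and kinetochore genes (42.9%). It stood in 8 of 24 windows of MuvB, E2F, pocket protein and NF-Y genes (33.3%), 3 of 10 cohesin windows (30%) and 4 of 16 windows of other regulators of mitotic entry and exit (25%). It stood in 2 of 16 windows of subunits of the anaphase-promoting complex (APC/C, 12.5%).

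In each dominant-negative line most mitotic genes fell on induction, and none rose. Of all genes tested 8.01% were called higher in dnBrg1, 11.2% in dnChd4 and 9.2% in dnSnf2h. With dnBrg1 induction 39 of the 44 genes fell at a limma adjusted p under 0.05, where 6.22% of all genes tested passed in that direction. With dnChd4 induction 42 of 44 fell, against a background of 6.82%, and with dnSnf2h induction 42 of 44, against 8.34%. The median change over the 44 genes was -0.74 in dnBrg1, -0.71 in dnChd4 and -0.73 in dnSnf2h, which correspond to 1.67-fold, 1.63-fold and 1.66-fold lower signals. Over all genes tested the medians were -0.04, -0.03 and -0.01 (dnBrg1, dnChd4, dnSnf2h). All 44 changes had a negative sign in each line. Induced and repressed arrays did not overlap for 44 genes in dnBrg1 (29.9% of genes tested were lower without overlap), 44 in dnChd4 (32.9%) and 43 in dnSnf2h (24.1%). The count rests on which arrays set the spread: with all 17 arrays in 1 fit, no member passed in any of these lines (68, 19 and 1 genes passed in all), and with the 2 doubted control libraries left out 40, 42 and 42 members passed.

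The levels on single arrays show the same separation. The mean log2 signal over the 44 genes was 8.42 and 8.41 in dnBrg1 induced arrays, against 9.19 and 9.08 in dnBrg1 repressed arrays. In the dnChd4 line it was 8.48 and 8.44 in induced arrays, against 9.21 and 9.12 in repressed arrays. In the dnSnf2h line it was 8.16 and 8.64 in induced arrays, against 9.10 and 9.16 in repressed arrays. All 6 induced arrays thus lay under all 6 repressed arrays in this mean. Gene by gene, all 6 induced arrays lay under all 6 repressed ones for 39 of the 44 genes, against 4.81% of all genes tested. The dnSnf2h induced arrays stood apart from each other: replicate 1 was lower than replicate 2 for all 44 genes, by a median of 0.51. Without replicate 1 the dnSnf2h median change was -0.49 with 29 genes called, and without replicate 2 it was -0.98 with 43 called.

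**Figure D2:**
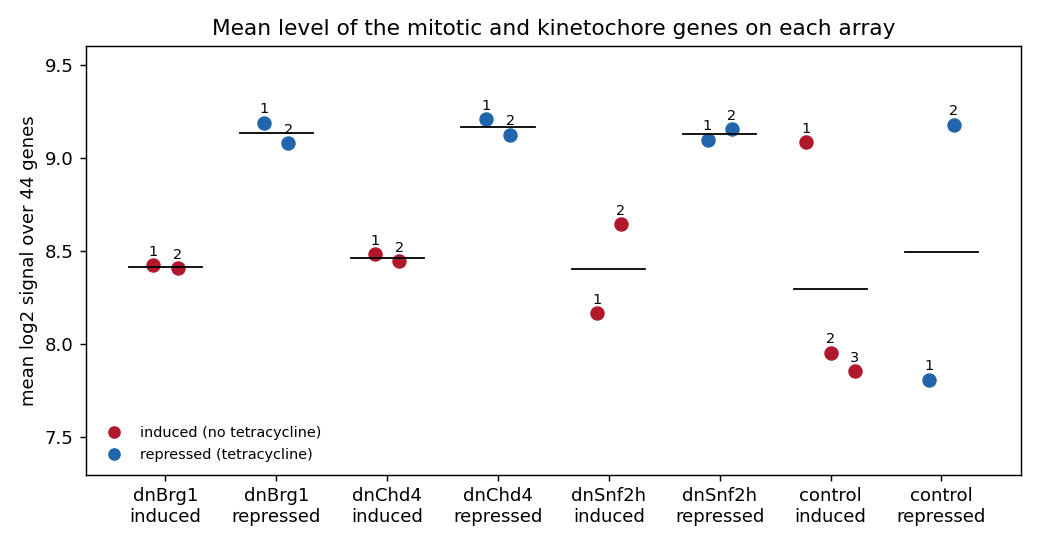
Mean log2 signal over the 44 mitotic genes (vertical axis) for each of the 17 arrays, by group (horizontal axis); numbers are replicate numbers, red points are induced and blue points repressed arrays, and lines are group means. In the dominant-negative lines the induced arrays lie between 8.16 and 8.64 and the repressed arrays between 9.08 and 9.21, while the control arrays of both labels are found at high and at low levels.

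Of the 44 genes, 38 passed in all of the dominant-negative lines, where 3.06% of genes tested did so. Bub1, Cdca8, Pttg1 and Foxm1 passed in 2 lines, Bub3 in 1 and Spc25 in none. Across the 44 genes the changes correlated with r = 0.729 between dnBrg1 and dnChd4, 0.697 between dnBrg1 and dnSnf2h and 0.76 between dnChd4 and dnSnf2h. Across all genes the same values were 0.672, 0.69 and 0.772. These are descriptions across genes, which are not independent replicates.

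**Figure D3:**
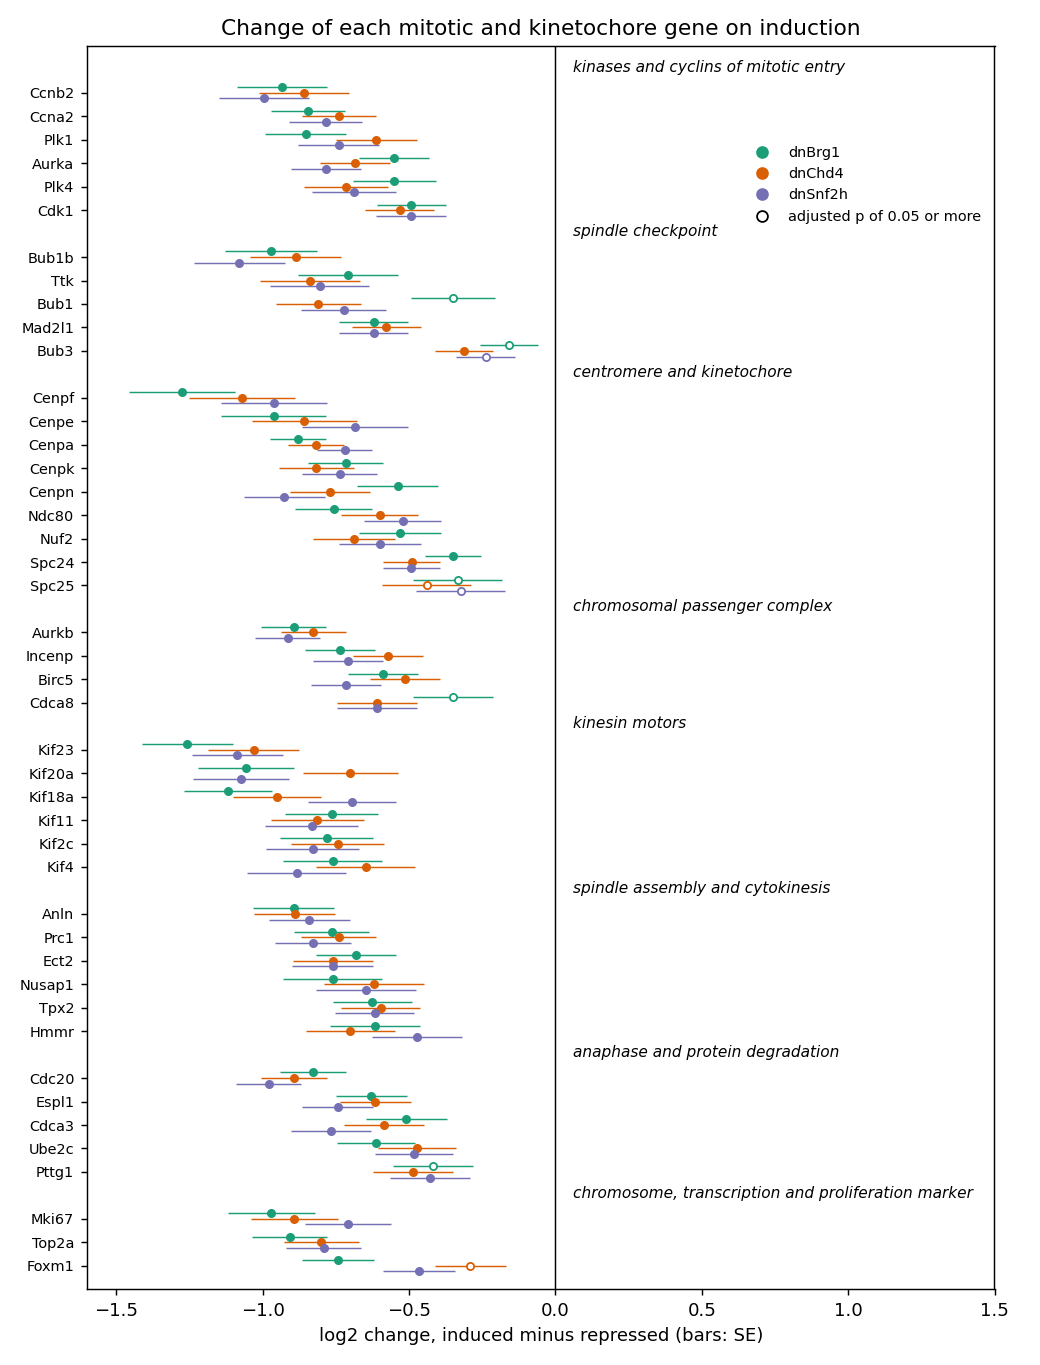
Log2 change, induced minus repressed (horizontal axis, bars are limma SE), of each of the 44 genes in the dnBrg1, dnChd4 and dnSnf2h lines, grouped by role; open symbols had an adjusted p of 0.05 or more. All points lie left of 0, with Kif23 and Cenpf farthest by their mean and Bub3 and Spc25 nearest.

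All 6 measured kinases and cyclins of mitotic entry fell in each line. Ccnb2, which encodes cyclin B2, an activating partner of Cdk1, read 8.96 and 8.84 in dnBrg1 induced arrays, against 9.96 and 9.71 in dnBrg1 repressed arrays. It read 9.08 and 8.89 in dnChd4 induced arrays, against 10.01 and 9.67 in dnChd4 repressed arrays, and 8.63 and 9.12 in dnSnf2h induced arrays, against 9.83 and 9.91 in dnSnf2h repressed arrays. No line had overlapping groups for Ccnb2, and its falls were 1.91-fold, 1.81-fold and 1.99-fold (limma adjusted p between 0.000379 and 0.00104). Cdk1, the kinase that drives entry into mitosis, had the smallest mean change in this role. Its signal was 9.27 and 9.31 in dnBrg1 induced arrays, against 9.79 and 9.77 in dnBrg1 repressed arrays, a change of -0.49 (SE 0.118; limma adjusted p = 0.0111). The change of Cdk1 was -0.53 when dnChd4 was induced (adjusted p = 0.00503) and -0.49 for dnSnf2h (adjusted p = 0.00879). Cyclin A2 (Ccna2), which acts from S phase into early mitosis, fell by 0.85, 0.74 and 0.79 on the log2 scale in dnBrg1, dnChd4 and dnSnf2h. Plk1, Plk4 and Aurka, kinases of mitotic progression, of centriole duplication and of the spindle poles, fell by between 0.55 and 0.85 on the log2 scale.

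Spindle checkpoint genes, whose products hold back anaphase until chromosomes are attached, gave 3 calls of 5 in dnBrg1, 5 in dnChd4 and 4 in dnSnf2h, all lower. Bub1b, which encodes the checkpoint protein BubR1, read 8.77 and 8.64 in dnBrg1 induced arrays, against 9.73 and 9.62 in dnBrg1 repressed arrays. In dnChd4 it read 8.92 and 8.79 when induced, against 9.76 and 9.72 when repressed, and in dnSnf2h 8.45 and 9.07 when induced, against 9.71 and 9.97 when repressed. The Bub1b groups did not overlap in any of these lines, and the falls were 1.96-fold, 1.85-fold and 2.12-fold (limma adjusted p between 0.000234 and 0.000934). Bub3, a checkpoint subunit that binds Bub1 and BubR1, read 10.60 and 10.43 in dnBrg1 induced arrays, against 10.71 and 10.64 in dnBrg1 repressed arrays. Bub3 fell by 0.31 on the log2 scale in dnChd4 (adjusted p = 0.0415), while its changes of -0.16 in dnBrg1 (adjusted p = 0.377) and -0.24 in dnSnf2h (adjusted p = 0.127) were not called. The kinase gene Bub1 changed by -0.35 in dnBrg1 (SE 0.144; adjusted p = 0.136) and fell by 0.81 in dnChd4 and 0.72 in dnSnf2h on the log2 scale. Mad2l1 and Ttk, a checkpoint effector and the kinase that starts the checkpoint, fell in each line by between 0.58 and 0.84 on the log2 scale.

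Of 9 centromere and kinetochore genes, 8 were called lower in each line. Spc25 also had a negative change in each but missed the threshold. Cenpf, which encodes a large protein of the outer kinetochore, read 7.65 and 7.74 in dnBrg1 induced arrays, against 9.14 and 8.80 in dnBrg1 repressed arrays. In dnChd4 the Cenpf signal was 7.61 and 7.46 when induced, against 8.74 and 8.47 when repressed, and in dnSnf2h it was 7.29 and 7.94 when induced, against 8.41 and 8.75 when repressed. These were falls of 2.42-fold, 2.10-fold and 1.95-fold with no overlap of groups (limma adjusted p between 0.000287 and 0.00174). Cenpa, the histone H3 variant that marks centromeres, fell with the smallest adjusted p of this role: by 0.88 with dnBrg1 (SE 0.0954; adjusted p = 3.3e-05), 0.82 with dnChd4 (adjusted p = 3.5e-05) and 0.72 with dnSnf2h (adjusted p = 0.000121). The Ndc80 complex is the microtubule anchor of the kinetochore. Among its subunits, Ndc80 changed by -0.76, -0.60 and -0.52 and Nuf2 by -0.53, -0.69 and -0.60, while Spc24 changed by -0.35, -0.49 and -0.49 (dnBrg1, dnChd4, dnSnf2h; all called). Spc25 read 8.10 and 8.27 in dnChd4 induced arrays, against 8.65 and 8.60 in dnChd4 repressed arrays. Its change of -0.44 there had an adjusted p of 0.0609, and those of -0.33 in dnBrg1 and -0.32 in dnSnf2h had 0.183 and 0.179.

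The chromosomal passenger complex corrects faulty attachments and later guides cytokinesis. Its kinase gene Aurkb read 8.70 and 8.70 in dnBrg1 induced arrays, against 9.61 and 9.58 in dnBrg1 repressed arrays. It read 8.74 and 8.68 in dnChd4 induced arrays, against 9.52 and 9.56 in dnChd4 repressed arrays, and 8.44 and 8.81 in dnSnf2h induced arrays, against 9.57 and 9.51 in dnSnf2h repressed arrays. The groups did not overlap in any of these lines, and Aurkb fell 1.86-fold, 1.77-fold and 1.88-fold (limma adjusted p between 6.14e-05 and 0.000111). Birc5 and Incenp, the survivin and scaffold subunits, fell in all of these lines by between 0.52 and 0.74 on the log2 scale. Cdca8, which encodes borealin, fell by 0.61 in both dnChd4 and dnSnf2h, and its change of -0.35 in dnBrg1 was not called (SE 0.137; adjusted p = 0.113).

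The kinesin motors, which slide and destabilise spindle microtubules, all fell in each line, 6 of 6. Kif23, the motor of the centralspindlin complex of the midzone, read 8.31 and 8.22 in dnBrg1 induced arrays, against 9.63 and 9.42 in dnBrg1 repressed arrays. In dnChd4 it read 8.51 and 8.57 when induced, against 9.61 and 9.52 when repressed, and in dnSnf2h 8.11 and 8.70 when induced, against 9.36 and 9.62 when repressed. Kif23 had the largest mean change of the 44 genes over these lines, with falls of 2.39-fold, 2.04-fold and 2.12-fold (limma adjusted p between 8.58e-05 and 0.000281). Kif4, a motor on chromosome arms, had the smallest mean change of the kinesins, at -0.76 in dnBrg1, -0.65 in dnChd4 and -0.88 in dnSnf2h. Kif11, the motor that separates spindle poles, fell by between 0.76 and 0.83 on the log2 scale.

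Spindle assembly and cytokinesis genes also fell without exception, 6 of 6 in each line. Anln, the gene of the contractile ring scaffold anillin and of the fourth window shown above, read 9.50 and 9.45 in dnBrg1 induced arrays, against 10.42 and 10.33 in dnBrg1 repressed arrays. In dnChd4 it read 9.52 and 9.48 when induced, against 10.44 and 10.34 when repressed, and in dnSnf2h 9.16 and 9.72 when induced, against 10.22 and 10.35 when repressed. The falls of Anln were 1.86-fold, 1.85-fold and 1.79-fold (limma adjusted p between 0.000368 and 0.000638). Ect2, the exchange factor that starts furrowing, fell by 0.68, 0.76 and 0.76 on the log2 scale. Hmmr, a spindle pole protein gene, had the smallest mean change of this role, at -0.62 for dnBrg1, -0.70 for dnChd4 and -0.47 for dnSnf2h (limma adjusted p = 0.045, the largest of the 3).

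Among the genes of anaphase and protein degradation, 4 of 5 fell in dnBrg1 and 5 in both dnChd4 and dnSnf2h. Cdc20, which activates the APC/C at anaphase, read 7.82 and 7.93 in dnBrg1 induced arrays, against 8.63 and 8.77 in dnBrg1 repressed arrays. In dnChd4 it read 8.20 and 8.12 when induced, against 9.16 and 8.95 when repressed, and in dnSnf2h 8.01 and 8.21 when induced, against 9.19 and 9.00 when repressed. The groups were separate in every line, and Cdc20 fell 1.77-fold, 1.86-fold and 1.97-fold (limma adjusted p between 3.75e-05 and 0.000182). Pttg1, which encodes securin, the inhibitor of separase, read 6.93 and 6.73 in dnBrg1 induced arrays, against 7.29 and 7.21 in dnBrg1 repressed arrays. That change of -0.42 missed the threshold (adjusted p = 0.0557), and Pttg1 fell by 0.49 in dnChd4 (adjusted p = 0.021) and 0.43 in dnSnf2h (adjusted p = 0.0428). The separase gene Espl1 fell by 0.63, 0.62 and 0.74 on the log2 scale.

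Mki67, which encodes the proliferation marker Ki-67 on the surface of mitotic chromosomes, read 9.52 and 9.57 in dnBrg1 induced arrays, against 10.64 and 10.39 in dnBrg1 repressed arrays. In dnChd4 it read 9.38 and 9.40 when induced, against 10.39 and 10.17 when repressed, and in dnSnf2h 9.21 and 9.77 when induced, against 10.16 and 10.24 when repressed. Its falls were 1.96-fold, 1.85-fold and 1.64-fold (limma adjusted p between 0.000481 and 0.00347). Top2a, the topoisomerase that untangles sister chromosomes, fell by 0.91, 0.80 and 0.79 on the log2 scale. Foxm1, a transcription factor of G2 and mitotic genes, was called in dnBrg1 and dnSnf2h. It read 8.41 and 8.36 in dnBrg1 induced arrays, against 9.22 and 9.04 in dnBrg1 repressed arrays, a fall of 0.74 (SE 0.122; limma adjusted p = 0.000835). In dnSnf2h Foxm1 fell by 0.47 (adjusted p = 0.0149), and in dnChd4 it read 8.56 and 8.56 when induced, against 8.89 and 8.81 when repressed, a change of -0.29 that was not called (adjusted p = 0.13).

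**Figure D4:**
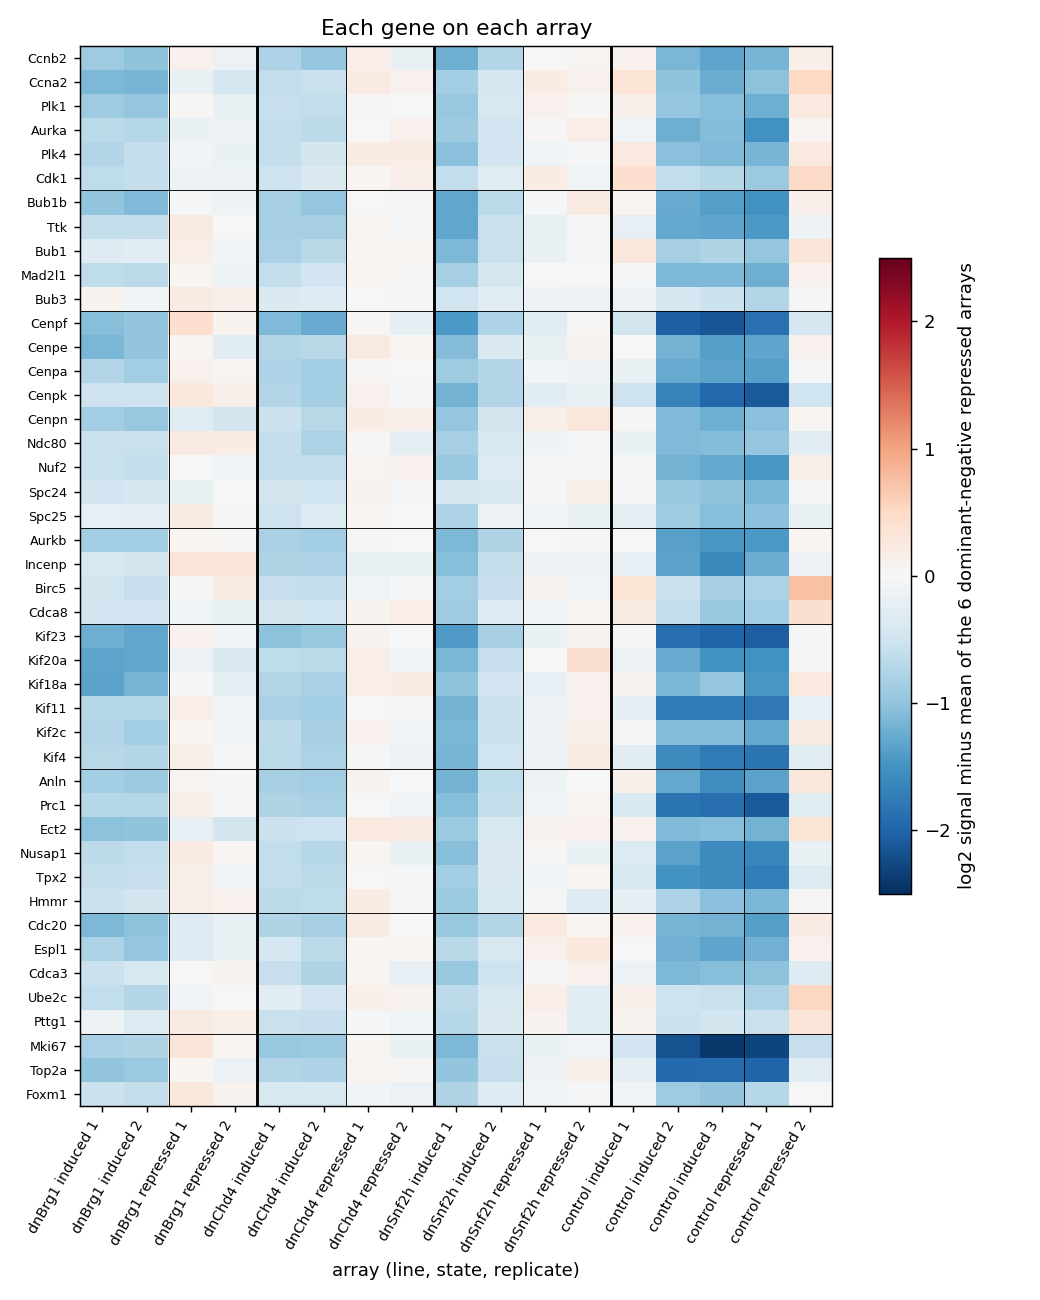
Log2 signal of each of the 44 genes (rows, grouped by role) on each of the 17 arrays (columns), minus the mean of the 6 dominant-negative repressed arrays; blue is lower and red higher. All 6 dominant-negative induced arrays are under all 6 repressed ones for 39 genes. Control induced replicates 2 and 3 and control repressed replicate 1 are under those 6 repressed arrays for all 44, a count not made over all genes tested.

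Whether the remodelers differed in this response was tested by the difference between inductions. No mitotic gene was called in dnBrg1 minus dnChd4 (1.27% of all genes tested were called in either direction), in dnBrg1 minus dnSnf2h (0.632%) or in dnChd4 minus dnSnf2h (0.13%). At an unadjusted limma p under 0.05 there were 2, 0 and 0 members. Those 2 were Bub1, at 0.46 for dnBrg1 minus dnChd4 (95% interval 0.02 to 0.90; adjusted p = 0.469), and Foxm1, at -0.45 (95% interval -0.82 to -0.08; adjusted p = 0.346). The share of all genes tested under that unadjusted threshold is not given here. The unadjusted count therefore does not set Bub1 and Foxm1 apart from other genes, and neither passed after adjustment. Over all members the 95% intervals of the differences reached from -0.85 to 0.90 for dnBrg1 minus dnChd4, from -0.88 to 0.81 for dnBrg1 minus dnSnf2h and from -0.72 to 0.87 for dnChd4 minus dnSnf2h. The mean SE of such a difference was 0.195, and the largest difference of a member was 0.46, 0.42 and 0.37 in these comparisons.

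The lines were compared before induction as well. In dnBrg1 repressed minus dnChd4 repressed arrays, 5 mitotic genes were called, 4 lower and 1 higher (6.35% of genes tested were called lower and 8.07% higher). In dnBrg1 repressed minus dnSnf2h repressed arrays 7 were called, 4 lower and 3 higher (6.72% and 7.61%), and in dnChd4 repressed minus dnSnf2h repressed arrays none was (0.015%; 0 members at an unadjusted limma p under 0.05). In either direction, 2875 and 2857 of 19938 genes tested were called in the first and second comparison. The 5 and 7 calls among 44 genes are thus near the shares of all genes and do not set the mitotic genes apart. The median difference over the 44 genes was -0.01, 0.01 and 0.02. Cenpn, a protein gene of the inner kinetochore, read 8.76 and 8.61 in dnBrg1 repressed arrays, against 9.25 and 9.18 in dnChd4 repressed arrays and 9.21 and 9.35 in dnSnf2h repressed arrays (adjusted p = 0.0177 and 0.01). Incenp went the other way, with 9.30 and 9.29 in dnBrg1 repressed arrays, against 8.81 and 8.79 in dnChd4 repressed arrays and 8.86 and 8.85 in dnSnf2h repressed arrays (adjusted p = 0.0107 and 0.0243). The first and second comparison share the dnBrg1 arrays. Ccna2 and Cdc20 were lower in repressed dnBrg1 cells in both, by 0.46 and 0.36 on the log2 scale against dnChd4 and by 0.44 and 0.39 against dnSnf2h. Ect2 was lower against dnChd4 (-0.55), Espl1 lower against dnSnf2h (-0.44), and Cenpk, a further inner kinetochore gene, and Bub3 higher against dnSnf2h (0.41 and 0.31). These calls depended on single arrays: against dnChd4, the count was 3 without dnBrg1 repressed replicate 1 and 0 without its replicate 2 or without either dnChd4 repressed array. Against dnSnf2h it was 2 and 1 without dnBrg1 repressed replicates 1 and 2, and 4 and 1 without dnSnf2h repressed replicates 1 and 2. With all 17 arrays in 1 fit both counts were 0.

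Induction of the transactivator alone called no mitotic gene in the control line (0 of 19938 genes tested passed, 0%). At an unadjusted limma p under 0.05, 537 genes were lower and 308 higher, with no member among them. Induced and repressed control arrays were separate for 0 members, against 7.73% of genes tested that were lower without overlap. The median change over the 44 genes was -0.18, and the SE of a gene such as Cdc20 was 0.403, against 0.112 in the dominant-negative fit. Single arrays set the size and the sign of that median. It was -0.58, -0.02 and 0.04 without control induced replicate 1, 2 and 3, and -0.90 and 0.50 without control repressed replicate 1 and 2, with no member called in any of these fits. With array weights it was -0.52. The single arrays were widely spread. The mean over the 44 genes was 9.08, 7.96 and 7.85 in control induced replicates 1, 2 and 3, against 7.81 and 9.18 in control repressed replicates 1 and 2. Arrays of both labels were thus found near the level of repressed dominant-negative cells and arrays of both labels lay under it.

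The same held gene by gene. Cdc20 read 9.05, 7.79 and 7.76 in control induced replicates 1 to 3, against 7.57 and 9.15 in control repressed replicates 1 and 2. Mki67 read 9.86, 8.15 and 7.92 in control induced arrays, against 8.04 and 9.76 in control repressed arrays. Kif23 read 9.49, 7.65 and 7.53 in control induced arrays, against 7.46 and 9.49 in control repressed arrays. For all 44 genes control repressed replicate 1 was lower than replicate 2, by a median of 1.42 and a range from 0.70 to 2.02 on the log2 scale. Likewise control induced replicates 2 and 3 were lower than replicate 1 for all 44, by medians of 1.13 and 1.21. Replicates 2 and 3 differed from each other by a median of 0.10. Control induced replicates 2 and 3 and control repressed replicate 1, as labelled, lay under all 6 dominant-negative induced arrays for 28, 38 and 37 of the 44 genes. Control induced replicate 1 and control repressed replicate 2, as labelled, lay at or above all 6 of those arrays for 41 genes each. These counts of single control arrays against other lines were not made over all genes tested. They therefore describe the 44 genes and do not set them apart from other genes.

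Across the 44 genes, control repressed replicate 1 minus replicate 2 correlated with the mean dominant-negative induction with r = 0.693, while r was 0.822 when control induced replicate 1 was subtracted from replicate 2. For replicate 1 minus replicate 2 of the dominant-negative groups the same value lay between -0.399 and 0.52. For control induced replicate 3, r was 0.788 with replicate 1 subtracted and 0.0459 with replicate 2 subtracted. These are descriptions across genes. They were not computed over all genes tested, so they do not set the 44 genes apart. The control arrays enter no dominant-negative induction, whereas the dominant-negative replicates are among the arrays behind that mean. With all 17 arrays as labelled, the inductions of dnBrg1, dnChd4 and dnSnf2h, less that of the control, each had a median of -0.50 over the 44 genes and no member called (0.0903%, 0.0401% and 0% of genes tested for dnBrg1, dnChd4 and dnSnf2h, and no member at an unadjusted limma p under 0.05). The sign of these medians depended on single control arrays. Without control repressed replicate 1 they were 0.18, 0.22 and 0.18 (dnBrg1, dnChd4, dnSnf2h), and without control repressed replicate 2 they were -1.23, -1.25 and -1.22. Without control induced replicate 1 they were -0.11, -0.11 and -0.10, without replicate 2 -0.70, -0.69 and -0.70, and without replicate 3 -0.75, -0.73 and -0.76. No member was called in any of these fits. With array weights the medians were -0.19, -0.16 and -0.15, with 39 differences below 0 and 5 above in each line. Without both control repressed replicate 1 and control induced replicate 1, libraries chosen for going against their labels, the control median was -1.31. That fit leaves only replicate 2 in the control repressed group, so only sizes and signs are given here. In that fit all 44 differences from the control induction had a positive sign in each line, whereas the unweighted fit of the 17 arrays gave 44 negative signs in each (43 for dnChd4 with median centring). The median differences between each dominant-negative induction and the control induction turned to 0.59, 0.59 and 0.57 for dnBrg1, dnChd4 and dnSnf2h. A direction obtained that way follows from the choice of libraries. The part of the dominant-negative proteins in the fall and the part of the transactivator or of tetracycline removal cannot be told apart in these arrays.

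Other mitotic genes were counted in 7 lists made by function. As a background, 6.22%, 6.82% and 8.34% of all genes tested were called lower in dnBrg1, dnChd4 and dnSnf2h, and 8.01%, 11.2% and 9.2% were called higher. Of 25 other spindle and cytokinesis genes, 25 fell in dnBrg1, 23 in dnChd4 and 23 in dnSnf2h, with medians of -0.69, -0.68 and -0.77. Aspm, a spindle pole gene, fell 2.80-fold, 2.38-fold and 2.62-fold (limma adjusted p between 4.78e-05 and 0.000125), more than any of the 44 in each line. Kif15, a spindle motor gene, and Knstrn, a kinetochore and spindle gene, had mean changes of -1.04 and -0.91 over these lines. Of 8 condensin subunits, which compact mitotic chromosomes, 7, 6 and 7 fell in dnBrg1, dnChd4 and dnSnf2h, led by Ncapg, Ncapd2 and Smc2 with mean changes of -0.87, -0.79 and -0.78. Of 29 other centromere and kinetochore genes, 16, 20 and 19 fell. Kntc1 and Zwilch, subunits of the complex that recruits dynein to kinetochores, and Ska3, of a microtubule-binding kinetochore complex, led these with mean changes of -0.91, -0.87 and -0.78.

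Of 19 other regulators of mitotic entry and exit, 11, 11 and 13 fell and 0, 0 and 1 rose (dnBrg1, dnChd4, dnSnf2h). Fbxo5, the APC/C inhibitor Emi1, fell 2.55-fold, 2.25-fold and 2.47-fold. Cdc25b, a phosphatase gene that activates Cdk1, fell by 1.37 in dnBrg1 (SE 0.112; limma adjusted p = 3.24e-06), 0.77 in dnChd4 and 1.04 in dnSnf2h on the log2 scale. Mastl, the Greatwall kinase gene, had a mean change of -0.92. Of 11 genes of cohesin and its regulators 5, 6 and 6 fell, led by the cohesin protectors Sgo1 and Sgo2a and by Cdca5 (sororin), with mean changes of -0.82, -0.81 and -0.59. Of 20 genes of MuvB, E2F, pocket protein and NF-Y factors 6, 10 and 7 fell and 1 rose in each line, or 5% of the list, against 8.01%, 11.2% and 9.2% of all genes tested. E2f8, Rbl1 (p107) and Mybl2 (B-Myb), which are themselves known to rise in cycling cells, had the largest mean changes of that list, at -0.80, -0.75 and -0.69.

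The 14 APC/C subunits had medians of -0.04, -0.04 and -0.09, with 2, 1 and 1 called lower, against 6.22%, 6.82% and 8.34% of all genes tested. In each line 1 of the 14 (7.14%) was called higher, against 8.01%, 11.2% and 9.2% of all genes tested. Anapc13, a small structural subunit, was the one that rose, by 0.38, 0.41 and 0.50 (limma adjusted p between 0.00253 and 0.0176). Anapc11, the RING subunit, changed by -0.46, -0.28 and -0.31, and Cdc26 by -0.40, -0.39 and -0.32. Called lower in all 3 dominant-negative lines were 22 of 25 other spindle and cytokinesis genes, 5 of 8 condensin subunits, 10 of 19 other regulators of mitotic entry and exit, 12 of 29 other centromere and kinetochore genes, 5 of 11 cohesin genes, 4 of 20 MuvB, E2F, pocket protein and NF-Y genes and 0 of 14 APC/C subunits, against 3.06% of all genes tested. No test of the difference between lists was run.

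**Figure D5:**
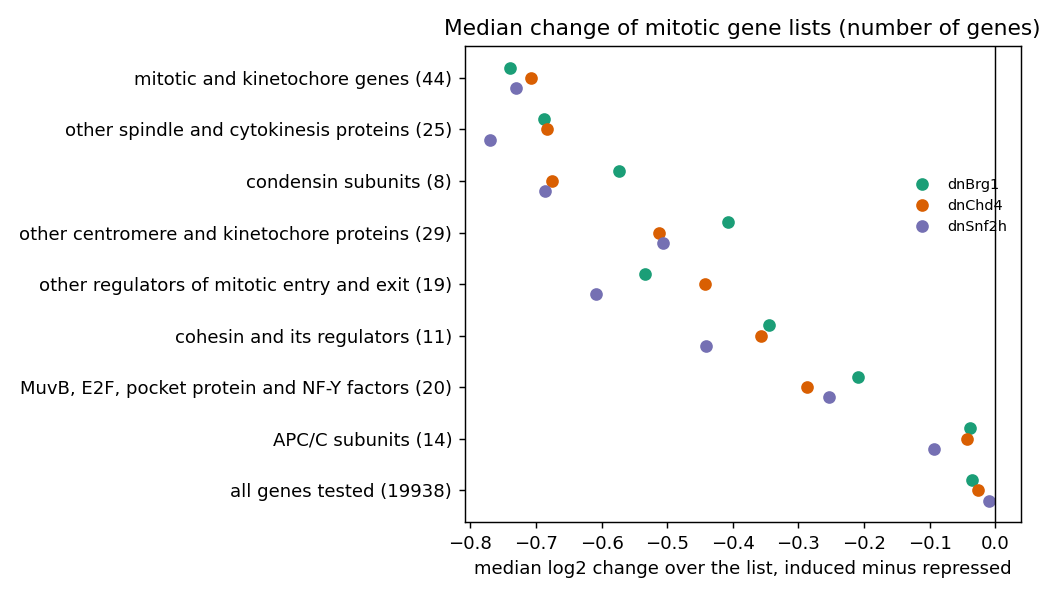
Median log2 change on induction (horizontal axis) of the 44 mitotic genes, of 7 lists of other mitotic genes and regulators, and of all genes tested, in the dnBrg1, dnChd4 and dnSnf2h lines; the number of genes is in brackets. The 44 genes, the spindle list and condensin lie farthest to the left, while the APC/C subunits lie at -0.04 to -0.09, close to all genes.

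Markers of other cell types were read beside these results. Of 5 epithelial, 3 adipocyte, 3 endothelial and 2 lymphocyte markers none was called on induction in any dominant-negative line. The lines did differ in the mean of the endothelial markers, which was 4.48 to 4.58 on dnBrg1 arrays, against 5.67 to 5.94 on arrays of the other lines. That difference came mostly from Cdh5, which ran from 3.86 to 8.33 over all arrays. Pecam1 stayed within 4.32 to 4.80 and Kdr within 4.52 to 5.16. Of 4 basal and myoepithelial markers Krt14 fell in each line, by 1.29, 1.15 and 1.29 on the log2 scale, and Acta2 rose in dnChd4 (2.56) and dnSnf2h (2.32). The mean over these 4 markers was 5.51 to 5.64 in dnBrg1 induced arrays, against 6.05 to 6.08 in dnBrg1 repressed arrays. It was 6.56 to 6.74 in dnChd4 induced arrays, against 6.28 to 6.31 in dnChd4 repressed arrays, and 6.47 to 6.67 in dnSnf2h induced arrays, against 6.28 to 6.34 in dnSnf2h repressed arrays. Of 4 fibroblast markers Vim and Pdgfra fell in dnBrg1 (by 0.42 and 0.76), Vim fell in dnSnf2h (by 0.33) and Col1a1 rose in dnChd4 (0.68). Of 4 macrophage markers Cd68 fell by 0.48 in dnBrg1 and rose by 1.03 in dnChd4. Ptprc, the pan-leukocyte gene, lay under 4.77 on every array. The part of these changes in the fall of the mitotic genes was not tested.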

How the data were processed

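RNA of 17 samples was measured on Affymetrix mouse whole-transcript gene arrays. The authors' deposited table held log2 signals: its values lay between 2.02 and 14.86, and array medians between 5.48 and 5.63. Per the submitters' processing notes the arrays went through Affymetrix Expression Console; the sources used here give neither its version nor the summarization, normalization and build. The number of arrays limits the precision.

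In the platform annotation 21789 of 35557 probe sets carried 1 symbol, 1621 carried several and 12147 none. The probe set with the highest mean was kept for each gene, which left 19938. Group means were fitted in limma 3.58.1 under R 4.3.3 with Benjamini-Hochberg adjustment over all genes and a threshold of 0.05. Inductions and differences among the dominant-negative lines used 12 arrays, and control comparisons 17. The limma step was checked on simulated data.

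Members, lists, tests and alternatives were chosen with earlier results of these data known. In each role the genes with the largest and smallest mean change and the highest signal were named, with every member that missed the threshold, up to 6 called in a difference, Foxm1, Cdc20 and Mki67, and the 3 largest mean changes of each other list; other members named were added after their values were seen. Alternatives were other sets of arrays, the replicate block, trended or robust priors, array weights, a filter on the dimmest 30% of genes, quantile normalization, median centring, the mean of probe sets and each array left out. Sequences are RefSeq, GRCm38.p6.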

Additional observations from a re-analysis of the deposited data

Results flagged for a closer look

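No mitotic gene had an induction that differed between lines by a test of the difference. The label check Chd4 did: its induction was 2.04 lower in dnBrg1 than in dnChd4 (dnBrg1 minus dnChd4 -2.04, SE 0.161; limma adjusted p = 5.23e-06), and dnChd4 minus dnSnf2h was 1.86 (SE 0.161; adjusted p = 5.27e-05). With all 17 arrays dnChd4 minus control was 1.83 (SE 0.168; adjusted p = 0.000389). No cause was tested.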

How the results depend on the processing

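No alternative called a mitotic gene higher in a dnBrg1, dnChd4 or dnSnf2h induction. Apart from the fit of all 8 groups, the alternatives gave 35 to 41 calls in dnBrg1, 41 to 44 in dnChd4 and, except for the line alone, 37 to 42 in dnSnf2h. The fit of all 8 groups called 0 in each of these inductions and 0 and 0 in dnBrg1 repressed minus dnChd4 repressed and dnBrg1 repressed minus dnSnf2h repressed. The fit of only the groups compared called 26 for dnSnf2h and 1 for dnBrg1 repressed minus dnSnf2h repressed, which was also 1 with array weights. Leaving out 1 array gave 26 to 43 calls in dnBrg1, 33 to 44 in dnChd4 and 29 to 43 in dnSnf2h, 0 to 5 for dnBrg1 repressed minus dnChd4 repressed, 1 to 9 for dnBrg1 repressed minus dnSnf2h repressed, and 0 to 0 for every other comparison. With the replicate block 39, 41 and 41 members were called in dnBrg1, dnChd4 and dnSnf2h. In dnBrg1 repressed minus dnSnf2h repressed it called 5 (4 lower and 1 higher), and in dnBrg1 repressed minus dnChd4 repressed 4 (3 lower and 1 higher). The block moved the control median to 0.04, from -0.18 without it, and the calls over all genes in dnBrg1 minus control to 10, from 18. Replicate 1 minus replicate 2 of induced and of repressed arrays correlated across genes with 0.016 in dnBrg1, 0.135 in dnChd4, 0.313 in dnSnf2h and -0.743 in control, so equal numbers were not taken as pairs.

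With 15 arrays (control repressed replicate 1 and control induced replicate 1 left out) control induction called 44, and dnBrg1, dnChd4 and dnSnf2h minus control 13, 1 and 3. That fit leaves 1 array in the control repressed group, and the libraries left out were chosen for going against their labels. Its counts of calls follow from that choice, so no conclusion is drawn from them. In that fit all 44 members turned above 0 in each of the 3 comparisons with control. Sizes are given for some of the named genes that turned there. In control they were Bub3 (-0.46) and Anapc11 (-0.52). In dnBrg1 minus control they were Cdk1 (0.64), Ccna2 (0.78), Nuf2 (0.86), Cdca8 (0.82), Anln (0.79), Ect2 (0.74), Top2a (0.76) and Espl1 (0.74). In dnSnf2h minus control they were Ccna2 (0.84), Mki67 (1.02) and Top2a (0.87). These genes were picked by a threshold in that fit, which does not set them apart from the others. Their direction follows from the choice of libraries. Over all settings the calls among all genes ran from 68 to 3528 in dnBrg1 (2839 as reported), 19 to 5268 in dnChd4 (3590) and 1 to 4204 in dnSnf2h (3497). The cause of these shifts was not tested beyond the arrays named.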
